A study of Mus musculus with 9 samples.

Results

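The net difference between the last and the earliest collection of a differentiation series was described by comparing 3 arrays of day 21 with 3 arrays of day 4, which are 6 of the 9 arrays of the series. All 22180 genes with a probe set of exactly 1 gene symbol were compared, each through its brightest probe set, and the 3 arrays of day 7 were used for the shared spread and for the values given between both ends. Every array came from mouse embryonic stem cells that carry the Afp::GFP transgene, a reporter that couples the promoter of Afp, the alpha-fetoprotein gene, to green fluorescent protein. The stem cells were aggregated into embryoid bodies of 300 cells at the start and were grown on gelatin in IMDM with 20% FBS, penicillin, streptomycin, transferrin, ascorbic acid and 0.5% PFHM. No growth factor or inhibitor is named in the labels, and by the labels the groups differ only in the days of culture. Cells were sorted by flow cytometry as expressing Afp at each collection, and 500 pg of Trizol-extracted RNA went into the Affymetrix WT Pico labelling. The labels name no line or clone and do not say that arrays of a day came from separate cultures, so p-values reflect only how far these samples differ, and that spread may be technical. The reporter follows Afp in any cell that uses its promoter, so a sorted sample can hold several cell types, and in such bulk RNA fewer cells of a type and less RNA per cell cannot be told apart.

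An embryoid body forms derivatives of the germ layers in an order that follows the early embryo. Cells of the epiblast pass through the primitive streak, where Nodal and Wnt signals switch on T-box and homeobox factors, and leave it as mesoderm or definitive endoderm. A second endoderm, the visceral endoderm, surrounds the epiblast and becomes the absorptive epithelium of the yolk sac. Afp is made by visceral endoderm and later by the hepatoblasts of the fetal liver, the precursors of hepatocytes and bile duct cells, which also begin to make albumin, fibrinogen and other plasma proteins.

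Values are log2 signals, on which 1 unit is a doubling of array signal, and a change is the day 21 mean minus the day 4 mean with its standard error (SE) from limma. A gene is called at a limma adjusted p under 0.05, over all 22180 genes. The signal of olfactory receptor genes, silent in most cells, served as background. The 95th percentile of these genes, 5.87 to 6.16 on single arrays, was averaged per day, and a gene counts as above background where its mean for the day exceeds it. Where all 3 arrays of 1 day were below background, the fold is a lower bound set against that background, written as at least so many fold. Across genes, which are not independent replicates, day 4 and day 21 arrays correlated at 0.938 to 0.943. Median signals lay between 5.88 and 5.98 on all arrays.

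Of 22180 genes, 3328 (15.0%) were called higher and 3120 (14.1%) lower at day 21. Large rises outnumbered large falls: 1207 genes (5.44%) rose by 2-fold or more and 569 (2.57%) fell by 2-fold or more. The median change over all genes was -0.03. The largest rises were those of Afp, Krt15 and Dcn, and the largest falls those of Tdgf1, Lhx1 and Aplnr.

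**Figure D1:**
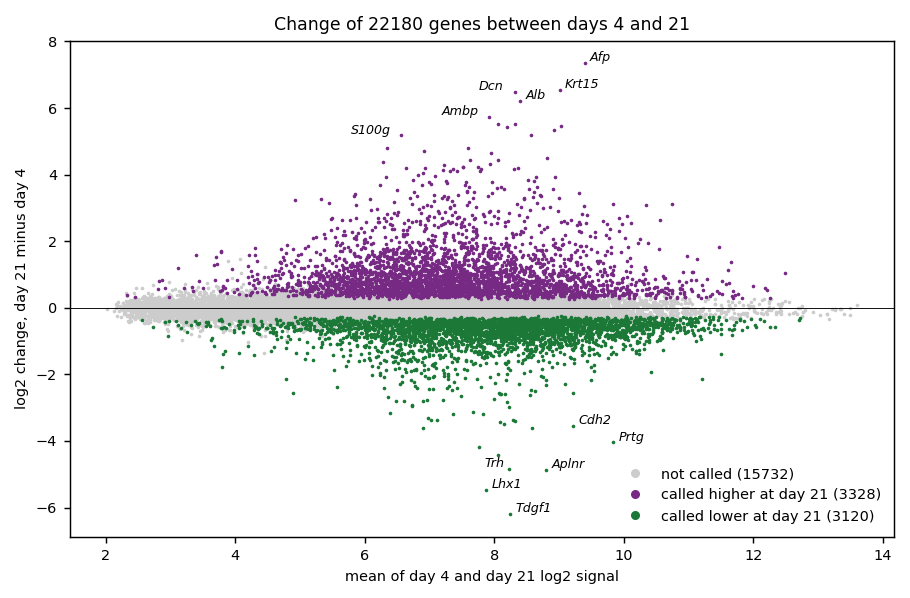
Log2 change between days 4 and 21 (vertical axis) against the mean log2 signal of both days (horizontal axis) for 22180 genes, each a point. Called rises (3328 genes) and called falls (3120 genes) are coloured, and rises reach 7.35 (Afp) where falls reach -6.19 (Tdgf1).

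Afp showed the largest rise of all 22180 genes. Its signals were 5.93, 5.62 and 5.62 on the day 4 arrays and 13.12, 13.14 and 12.95 on the day 21 arrays. All 3 day 4 arrays were below background although the cells are labelled as sorted for Afp, and all 3 day 21 arrays were near the top of the signal range. The change was 7.35 ± 0.11 (SE; limma adjusted p = 2.26e-10), at least 130-fold. Transcripts of the transgene were not analysed here.

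Krt15, a keratin of the basal layer of stratified epithelia, rose from 5.58, 5.96 and 5.66 to 12.52, 12.21 and 12.11, a change of 6.55 ± 0.13 (at least 75.3-fold). Dcn, the small leucine-rich matrix proteoglycan decorin, rose from 5.40, 4.79 and 5.05 to 12.20, 11.52 and 10.96, a change of 6.49 ± 0.26 (at least 45.8-fold). The day 21 arrays differed more from each other in Dcn than in Krt15 or Afp, and still lay far above the day 4 arrays. Upk1b, a uroplakin of urothelial plaques, rose by 5.53 ± 0.13 to 11.08 ± 0.093 (SD, n = 3). Cym, the milk-clotting stomach protease chymosin, rose by 5.46 ± 0.11 from a day 4 level just above background. Krt17, a keratin of basal and activated epithelia, rose by 5.43 ± 0.19, and Ugt2b34, a glucuronosyltransferase, rose by 5.51 ± 0.17. Igfbp5, a binding protein of insulin-like growth factors, rose by 5.35 ± 0.11, and S100g, the calcium-binding protein calbindin-D9k, rose by 5.18 ± 0.27.

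Among the falls, Tdgf1, the Nodal co-receptor also called Cripto, stood at 11.27, 11.35 and 11.40 on day 4 and at 4.96, 5.29 and 5.18 on day 21. All 3 day 21 arrays were below background, and the change was -6.19 ± 0.10 (limma adjusted p = 2.70e-10; at least 40.4-fold lower). Lhx1, a LIM homeobox factor of the gastrulating embryo, went from 10.43, 10.74 and 10.62 to 5.48, 4.68 and 5.26, a change of -5.46 ± 0.18 (at least 24.1-fold lower). Aplnr, the apelin receptor of early mesoderm, fell from 11.24 ± 0.13 to 6.35 ± 0.31 (SD, n = 3), 29.5-fold, and stayed just above background. Trh, which encodes prothyrotropin-releasing hormone, changed by -4.83 ± 0.13 and Eomes, a T-box factor of streak and endoderm, by -4.42 ± 0.13. Both ended below background on average. Prtg, the immunoglobulin-family receptor protogenin, changed by -4.05 ± 0.13 but was still clearly measured at day 21, at 7.81 ± 0.18. Cdh2, N-cadherin, the adhesion protein of mesenchymal and neural cells, changed by -3.54 ± 0.19, and Rspo3, a secreted enhancer of Wnt signals, by -3.63 ± 0.22. The others of the 12 largest falls were Fndc3c1 (-4.17 ± 0.16), the GABA receptor subunit Gabrb2 (-3.60 ± 0.16), the lipid kinase Dgkk (-3.48 ± 0.22) and coagulation factor V, F5 (-3.44 ± 0.16). The rule for these 24 genes asks for arrays of both days that do not overlap, which 40.4% of all genes meet.

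**Figure D2:**
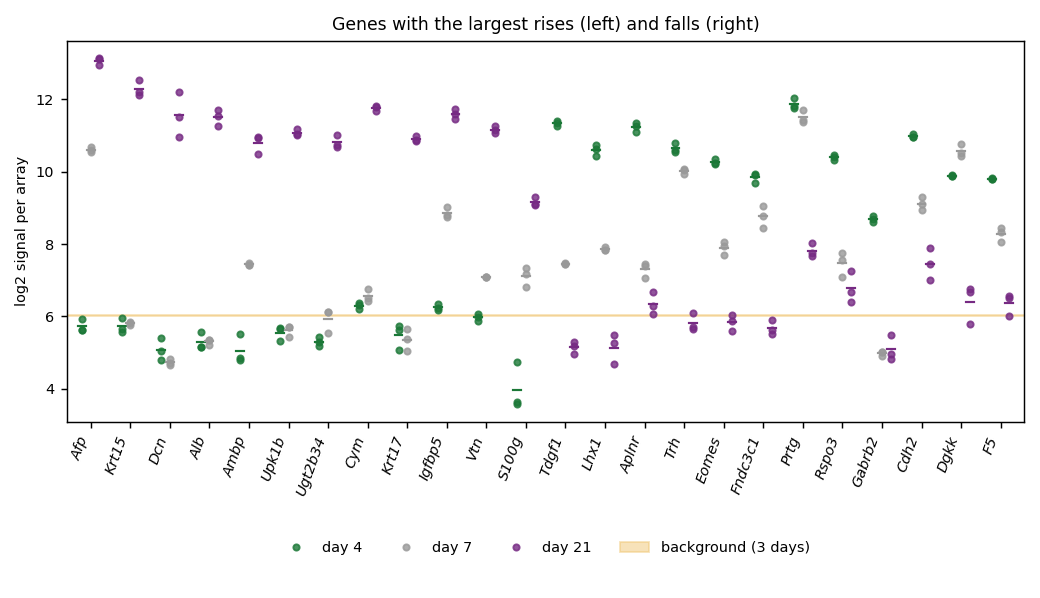
Log2 signal on each of the 9 arrays for the 12 largest rises and the 12 largest falls, with a short line at the mean of each day and a band for background. Day 7 lies between both ends for Afp, Ambp and Tdgf1, near day 4 for Krt15, Dcn and Alb, and near day 21 for Gabrb2.

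Plasma proteins of the liver rose as a group. Of 31 listed genes, 24 were called higher, 0 lower and 7 did not pass, with a median change of 2.12 against -0.03 over all genes. Only 3 of them were above background at day 4 and 22 at day 21. Below background on both days were 9 of the 31, among them the called Serpina1b. Alb, albumin, stood at 5.16, 5.57 and 5.14 on day 4 and 11.53, 11.71 and 11.25 on day 21, a change of 6.21 ± 0.15 (limma adjusted p = 2.39e-09; at least 43.8-fold). At day 7 it was still at 5.31 ± 0.079, so its rise came in the later interval, whereas Afp changed by 4.88 ± 0.11 between days 4 and 7 and by 2.47 ± 0.11 between days 7 and 21. Ambp, which gives rise to bikunin and alpha-1-microglobulin, rose by 5.74 ± 0.19 (at least 26.8-fold). Vtn, the adhesive plasma protein vitronectin, rose by 5.18 ± 0.10. Fgg and Fgb, chains of fibrinogen, rose by 4.20 ± 0.23 and 4.71 ± 0.13. Ttr, transthyretin, a plasma carrier of thyroxine, rose by 3.48 ± 0.14, and was higher at day 7 than at day 21.

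The upstream sequences of some of these genes are shown because the motif GTTAAT, part of the recognition site of the HNF1 factors, is known at the promoters of Alb and Afp. The search covered the 250 bases before each RefSeq start (build GRCm38.p6) on both strands, so ATTAAC was counted as well. Of 28 listed plasma protein genes with a window, 11 (39.3%) held the motif, and so did 9 of the 21 that were called higher (42.9%). Of 16990 windows of measured genes, 1016 held it (5.98%). The share was 6.55% among genes that rose by 2-fold or more and 3.88% among genes that fell by 2-fold or more. Among all genes called higher it was 4.80% and among all called lower 4.49%, both under the share of all windows. The 120 bases before the start of 5 of the 9 are given 5′ to 3′ on the strand of the gene, with the motif in capitals. They are Alb (chr5:90460750-90460869, plus strand), Afp (chr5:90490594-90490713, plus strand), Fga (chr3:83026033-83026152, plus strand), Fgb (chr3:83049864-83049983, minus strand) and Itih1 (chr14:30943290-30943409, minus strand).
Alb: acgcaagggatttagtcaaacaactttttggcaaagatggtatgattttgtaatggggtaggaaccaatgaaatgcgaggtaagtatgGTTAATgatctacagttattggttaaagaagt
Afp: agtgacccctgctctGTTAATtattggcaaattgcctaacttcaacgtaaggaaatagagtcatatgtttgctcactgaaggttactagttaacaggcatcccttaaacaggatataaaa
Fga: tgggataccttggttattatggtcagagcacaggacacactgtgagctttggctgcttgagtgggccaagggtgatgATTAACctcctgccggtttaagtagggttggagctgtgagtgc
Fgb: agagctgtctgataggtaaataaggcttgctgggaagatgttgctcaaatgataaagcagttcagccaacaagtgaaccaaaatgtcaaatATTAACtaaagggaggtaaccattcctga
Itih1: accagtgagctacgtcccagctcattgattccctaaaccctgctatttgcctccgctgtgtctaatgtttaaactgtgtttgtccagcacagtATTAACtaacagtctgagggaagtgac
The motif begins 32 bases before the start of Alb, 43 before Fga, 29 before Fgb and 27 before Itih1, and 105 before Afp. Of these genes, Alb changed by 6.21, Afp by 7.35, Fga, a fibrinogen chain, by 1.61, Fgb by 4.71 and Itih1, a heavy chain of the inter-alpha-trypsin inhibitors, by 0.39. Itih1 was only just above background at day 21 (Fga and Itih1 were chosen for their windows after their values were seen). A match is a description of letters and not a measured binding site.

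Transcription factors that act in liver and endoderm rose in part. Of 28, 15 were called higher, 1 lower and 12 did not pass (median 0.56). Onecut1, a factor of hepatoblasts and bile ducts, had the largest rise, from 5.33, 5.70 and 5.82 to 8.65, 9.31 and 8.91 (3.34 ± 0.19). Foxa1, a pioneer factor of endodermal organs, rose by 2.12 ± 0.088, and Hnf4a, the nuclear receptor that maintains hepatocyte identity, by 1.63 ± 0.18. Xbp1, which drives the secretory apparatus, rose by 1.26 ± 0.10. Sox17 and Gata4, factors of early endoderm, rose by 0.84 ± 0.10 and 0.51 ± 0.13 and were higher at day 7 than at either end. Foxa2 and Gata6 did not pass, with changes of 0.12 ± 0.15 (limma adjusted p = 0.614) and 0.07 ± 0.11 (adjusted p = 0.700), and both were above background on both days.

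Genes listed for hepatoblasts or bile duct cells nearly all rose: 16 of 19 were called higher and 0 lower (median 1.22). Cdh1, Epcam and Cldn6 of this list are counted again among the epithelial junctions, so the list is not particular to liver cells. Igfbp1, an insulin-like growth factor binding protein of liver, rose from 5.78 ± 0.18 to 10.09 ± 0.44 (SD, n = 3), at least 16.5-fold. Muc1, an epithelial membrane mucin, rose by 3.39 ± 0.13, Cftr, the chloride channel of secretory epithelia, by 2.68 ± 0.26 and Anxa13, an annexin of epithelial cells, by 2.15 ± 0.13. Enzymes of the mature hepatocyte were mostly at background. Of 30, 6 were called higher (20.0%, against 15.0% of all genes) and 2 lower (6.67%, against 14.1%). Below background on both days were 23, among them Cyp7a1, G6pc, Tat, Otc, Pck1 and Cyp2e1. The median of the list was 0.043. The 4 largest called changes were those of the alcohol dehydrogenase Adh1 (3.83 ± 0.15), the liver pyruvate kinase Pklr (1.41 ± 0.13), and the urea cycle enzymes Arg1 (1.19 ± 0.17) and Cps1 (1.04 ± 0.12), all rises. Enzymes that conjugate or detoxify foreign compounds behaved otherwise: 22 of 29 were called higher and 0 lower (median 1.0). Gsta3, a glutathione transferase, rose from 5.63 ± 0.12 to 10.28 ± 0.22 (at least 18.8-fold) and Ephx1, the microsomal epoxide hydrolase, from 6.56 ± 0.20 to 11.06 ± 0.077 (22.7-fold).

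Visceral endoderm and yolk sac genes were mostly higher at day 21 than at day 4, but many had been higher still at day 7. Of 35, 23 were called higher and 6 lower over the whole period (median 0.94). Between days 4 and 7, 27 were called higher and 1 lower, and between days 7 and 21, 5 were called higher and 23 lower. Of all genes, 6.98% were called higher and 6.47% lower in the first interval, and 12.4% higher and 10.7% lower in the second. These 3 comparisons share arrays, so their counts are not independent. Cubn, the endocytic receptor cubilin, stood at 5.36, 5.99 and 5.83 on day 4, 11.99, 12.07 and 11.95 on day 7 and 9.93, 9.92 and 9.65 on day 21. Its net rise of 4.11 ± 0.16 (at least 13.8-fold) was therefore what was left of a rise of 6.28 ± 0.16 after a fall. Fabp1 and Tspan8, a fatty acid binding protein and a tetraspanin of absorptive epithelia, rose by 4.38 ± 0.17 and 4.17 ± 0.17, mostly after day 7. Rbp4, the plasma carrier of retinol, rose by 3.93 ± 0.10 and Apoa1, the chief apolipoprotein of HDL particles, by 1.67 ± 0.11. The lysosome and endocytosis list had 18 of 29 members called higher and 1 lower (median 0.55), among them the adaptor Dab2 (1.92 ± 0.10) and the acid lipase Lipa (1.59 ± 0.11).

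Genes of epithelial junctions had the highest share of rises among the 51 lists in the chart of lists. Of 34, 31 were called higher, 0 lower and 3 did not pass (median 1.45). Most were already measurable at day 4, where 31 were above background. Cdh1, E-cadherin, stood at 11.37, 10.62 and 10.90 on day 4 and 12.29, 12.38 and 12.33 on day 21, a change of 1.37 ± 0.16. Esrp2, an epithelial splicing factor, rose by 2.87 ± 0.11 and the tight junction proteins Ocln and Cldn4 by 2.71 ± 0.12 and 2.70 ± 0.20. Cdh2 fell over the same period, as given above.

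Markers of stratified and urothelial epithelium formed another large group of rises. Of 33, 24 were called higher and 1 lower (median 1.18), and the number above background went from 10 to 27. Their summed linear signal was between 2547 and 2840 on the day 4 arrays and between 15891 and 17699 on the day 21 arrays. Krt4, a keratin of mucosal epithelia, rose from 5.24, 5.29 and 5.05 to 9.95, 9.94 and 10.05 (4.79 ± 0.19). Dsc3 and Dsg3, desmosomal cadherins of stratified epithelium, and Sprr1b and Sprr3, cornified envelope proteins, were below background on both days. Over the keratin family as a whole, 15 of 53 genes were called higher and 0 lower, and Krt14, the basal keratin, rose by 3.69 ± 0.16. Of 25 claudins, 11 were called higher and 1 lower, led by Cldn8, a barrier-forming claudin, at 4.21 ± 0.20. Among annexins, calcium-dependent membrane binding proteins, 8 of 11 were called higher and 0 lower, with Anxa1 at 3.06 ± 0.34 and Anxa8 at 2.58 ± 0.20. Of 17 S100 proteins, 7 were called higher and 0 lower.

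Markers of stomach and intestine rose in part: 13 of 33 were called higher and 1 lower (median 0.31). Besides Cym, they included the intestinal cadherin Cdh17 (3.97 ± 0.18), Krt20 (3.36 ± 0.22) and the intestinal fatty acid binding protein Fabp2 (2.12 ± 0.16). The intestinal factors Cdx1 and Cdx2 and the gastric acid pump Atp4a were below background on both days. Of 20 mesothelial markers, 10 were called higher and 2 lower (median 0.39). Msln, mesothelin, rose from 5.43, 5.19 and 5.50 to 8.76, 8.67 and 8.84 (3.38 ± 0.20), and Krt19 rose by 1.85 ± 0.15. Upk1b and Igfbp5 belong to this list as well. The summed signal of the mesothelial list was 3040 to 3246 at day 4 and 9956 to 11292 at day 21, and Calb2, Muc16 and Tbx18 were below background on both days. The part of such cells in the changes of other lists was not tested.

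**Figure D3:**
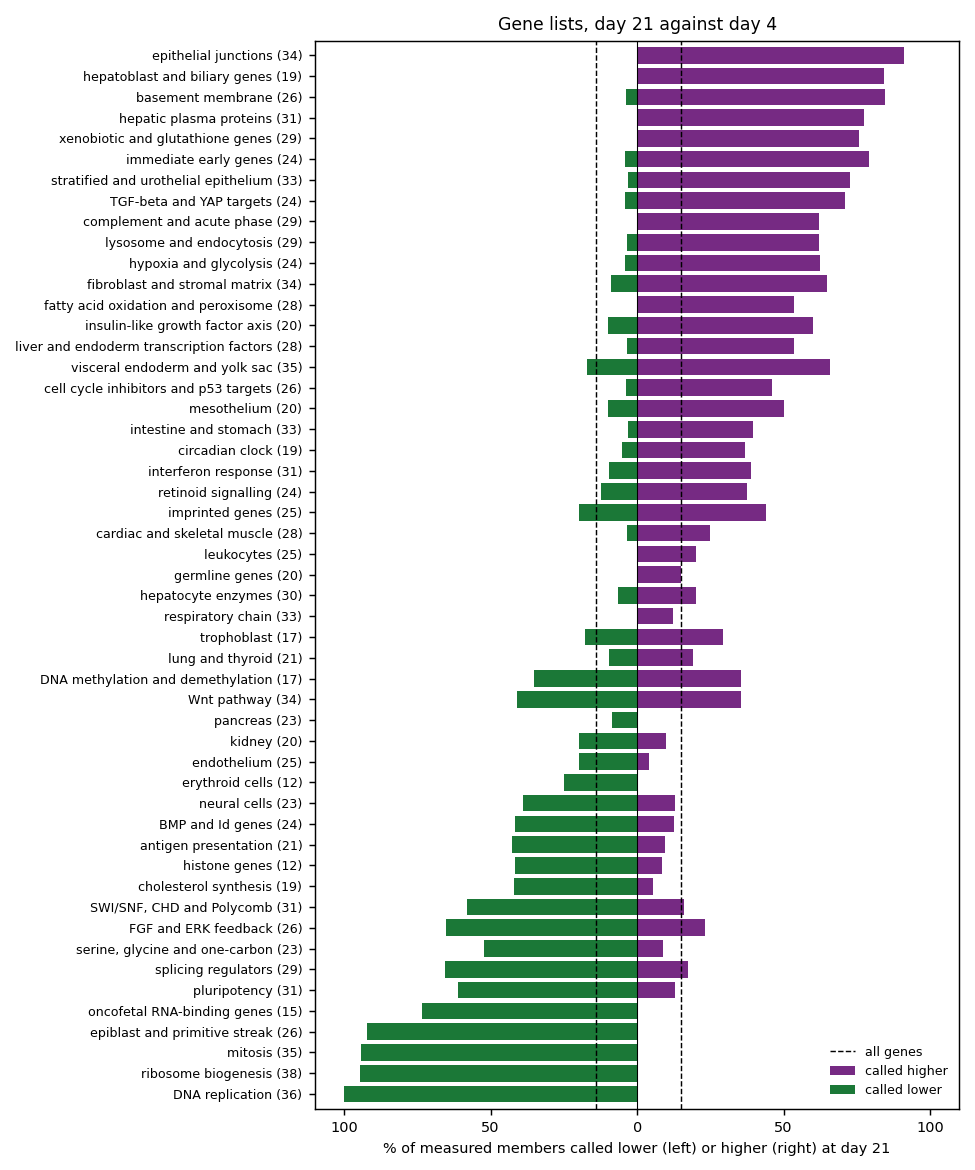
Share of measured members called higher (right) or lower (left) at day 21 against day 4 for 51 gene lists, with the number of measured members in brackets and dashed lines at the shares of all genes, 15.0% and 14.1%. Epithelial junctions (31 of 34 higher) stand at the top and DNA replication (36 of 36 lower) at the bottom.

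Fibroblast and stromal matrix genes were called higher for 22 of 34 members and lower for 3 (median 1.06). Dcn, Lum, Postn and Ogn had the largest changes. Lum, the proteoglycan lumican, stood at 3.93, 3.76 and 4.16 on day 4 and 9.49, 8.56 and 8.16 on day 21 (4.79 ± 0.29). Postn, the matrix protein periostin, stood at 6.19, 6.45 and 6.25 on day 4 and 10.65, 9.86 and 9.24 on day 21 (3.62 ± 0.29). In each of these genes array 1 of day 21 was the highest and array 3 the lowest, and the days did not overlap. Col1a1 and Col3a1, chains of the fibrillar collagens of connective tissue, rose by 3.13 ± 0.25 and 2.68 ± 0.26. The summed signal of the list ran from 16988 to 17617 at day 4 and from 24118 to 37112 at day 21, and 27 members were above background at day 4 already. Without array 1 of day 21, 22 members were still called higher. The part of stromal cells in other changes was not tested.

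Basement membrane genes, which epithelial and stromal cells both make, were called higher for 22 of 26 members and lower for 1 (median 0.96). Fras1, an epithelial matrix protein, rose from 7.56, 7.21 and 7.26 to 10.39, 10.46 and 10.26 (3.03 ± 0.11). Npnt, the integrin ligand nephronectin, rose by 2.26 ± 0.11, and the laminin chains Lamb3 and Lamc1 rose by 2.16 ± 0.14 and 1.96 ± 0.11. Over all collagens, 19 of 44 were called higher and 1 lower, with Col12a1 at 3.0 ± 0.28.

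Several other cell types were checked through their markers, and most of these markers were at background or did not pass the test. Of 25 endothelial genes, 1 was called higher and 5 lower (3 lower without replicate 3 of day 4). The called rise was Sox17, given above as a factor of early endoderm. Below background on both days were 14, among them Tek, Tie1, Vwf and Cldn5. Kdr, a receptor of vascular endothelial growth factor that early mesoderm also uses, changed by -2.07 ± 0.21. Of 25 leukocyte genes, 5 were called higher and 0 lower. Ptprc, Itgam, Adgre1, Tyrobp and Spi1 were below background on both days, while Cd14, a co-receptor for bacterial lipopolysaccharide, rose from 5.25, 4.70 and 4.53 to 8.48, 9.01 and 8.96 (3.99 ± 0.21). The summed signal of the leukocyte list was 1368 to 1481 at day 4 and 2287 to 2605 at day 21. Erythroid genes were called lower for 3 of 12 and higher for 0, and 10 were below background on both days. Pancreatic genes were called lower for 2 of 23 (4 with arrays centred on their medians) and higher for 0, and 14 were below background on both days, Ptf1a, Ins2 and Cpa1 among them. Neural genes were called lower for 9 of 23 and higher for 3. Stmn2, a neuronal regulator of microtubules, changed by -2.74 ± 0.21, and Sox2, a factor of stem cells and of neural and foregut epithelia, rose by 1.79 ± 0.20. Among cardiac and skeletal muscle genes 7 of 28 were called higher and 1 lower, with Tnnt2, cardiac troponin T, at 1.40 ± 0.091. Lung and thyroid genes had 4 rises and 2 falls of 21, trophoblast genes 5 and 3 of 17, and kidney genes 2 and 4 of 20.

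The epiblast and primitive streak list went down almost entirely. Of 26 genes, 24 were called lower and 0 higher (median -1.58), and 23 were above background at day 4 against 11 at day 21. Eomes stood at 10.22, 10.34 and 10.24 on day 4 and 6.04, 5.61 and 5.88 on day 21. Dnmt3b, the DNA methyltransferase of the epiblast, changed by -3.39 ± 0.13 and had been higher at day 7 than at day 4. Fgf5, a growth factor of the epiblast, changed by -3.32 ± 0.18.

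Pluripotency genes fell in the majority: 19 of 31 were called lower and 4 higher (median -0.54). Nanog stood at 8.83, 8.30 and 8.63 on day 4 and 6.61, 5.78 and 5.92 on day 21, a change of -2.48 ± 0.21. Pou5f1, which encodes Oct4, changed by only -0.61 ± 0.17 (adjusted p = 0.0230) from a modest day 4 level of 7.14 ± 0.28. Its call was lost without replicate 1 of day 4, without replicate 2 of day 21 and without replicate 3 of day 21. Sall4, a zinc finger factor, changed by -2.55 ± 0.11. The called rises in this list were Sox2, Klf4, Tfcp2l1 and Klf5, genes that are also used by epithelia outside the early embryo. RNA-binding genes of fetal and tumour cells fell for 11 of 15 and rose for 0 (median -0.73). Lin28a and Lin28b, which block maturation of let-7 microRNAs, changed by -2.59 ± 0.10 and -1.24 ± 0.13, and Arid3b, a DNA-binding factor, by -2.83 ± 0.10.

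Signalling pathways of the streak stage moved apart. In the list of FGF ligands, receptors and feedback genes, 17 of 26 were called lower and 6 higher (median -0.93). The receptors Fgfr2 and Fgfr3 were among the rises, at 3.31 ± 0.14 and 3.35 ± 0.19, as was Klb, the co-receptor of endocrine FGFs in liver, at 2.59 ± 0.17. Etv5, a transcription factor induced by FGF signals, changed by -2.18 ± 0.11. BMP pathway genes had 10 falls and 3 rises of 24, with the ligand Bmp4 at -2.0 ± 0.11, the antagonist Fst at -2.49 ± 0.15 and the target Id3 at -1.66 ± 0.16. Wnt pathway genes were divided, with 12 rises and 14 falls of 34. Lef1, a nuclear effector of Wnt signals, changed by -3.37 ± 0.13, the ligand Wnt3 by -2.05 ± 0.13 and the antagonist Dkk1 by -2.42 ± 0.15, whereas Rnf43, which removes Wnt receptors, rose by 2.78 ± 0.12. In retinoid signalling 9 of 24 genes were called higher and 3 lower. Cyp26a1, which degrades retinoic acid, changed by -3.18 ± 0.12, and Dhrs3 and Tgm2, an enzyme that lowers retinaldehyde and a transglutaminase, rose by 2.45 ± 0.16 and 3.31 ± 0.11.

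Genes of DNA replication fell without exception in the list: 36 of 36 were called lower and 0 higher (median -0.88). The changes were moderate, and 16 of them reached 2-fold. Mcm10, an initiation factor, stood at 9.04, 9.16 and 9.29 on day 4 and 7.44, 7.76 and 7.52 on day 21 (-1.59 ± 0.11), and Rrm2, a subunit of ribonucleotide reductase, changed by -1.41 ± 0.13. All 36 members were still above background at day 21. Of 35 mitotic genes, 33 were called lower and 0 higher (median -0.86), with the checkpoint kinase Bub1 at -1.66 ± 0.14 and the activator Cdc20 at -1.16 ± 0.14. Mki67, the proliferation antigen Ki-67, changed by -0.45 ± 0.13 (adjusted p = 0.0219) and stayed above 10 on every array. Its call was lost without replicate 1 or replicate 2 of day 4 and without replicate 1 or replicate 3 of day 21. Among inhibitors of the cell cycle and targets of p53, 12 of 26 were called higher and 1 lower. Btg2, an antiproliferative gene, rose by 2.51 ± 0.12, the cyclin-dependent kinase inhibitor Cdkn1a by 1.46 ± 0.095 and the pocket protein gene Rbl2 by 1.78 ± 0.15.

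Ribosome biogenesis genes fell as well: 36 of 38 genes were called lower and 0 higher (median -0.82). Dkc1, the pseudouridine synthase of box H/ACA particles, changed by -1.69 ± 0.11, and the nucleolar helicase Ddx21 by -1.40 ± 0.09. Small nucleolar RNA genes, which guide chemical modification of ribosomal RNA and mostly lie in introns of ribosome-related host genes, were called lower for 41 of 73 and higher for 1 (median -0.73). Snord16a stood at 10.24, 10.37 and 10.07 on day 4 and 8.99, 8.78 and 8.14 on day 21 (-1.59 ± 0.19). Probe sets of such short RNAs can also read the host transcript.

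Regulators of chromatin and splicing tended downward by small amounts. Of 31 genes of SWI/SNF, CHD and Polycomb complexes, 18 were called lower and 5 higher (median -0.41). The rises included the alternative SWI/SNF ATPase Smarca2 (2.10 ± 0.13) and Chd3 (1.83 ± 0.12), and the falls Smarcd1 (-1.26 ± 0.12) and Chd7 (-1.18 ± 0.14). Of 29 splicing regulators, 19 were called lower and 5 higher (median -0.40). None of the falls reached 2-fold, while all 5 rises did: Mbnl1 (2.54 ± 0.13), Mbnl2 (2.07 ± 0.13), which promote splicing patterns of differentiated cells, Esrp1 (1.62 ± 0.18), Esrp2 and Mbnl3. Among genes of DNA methylation and demethylation 6 of 17 rose and 6 fell. Tet2, an oxidase of methylcytosine, rose by 1.82 ± 0.14, and Uhrf1, which guides maintenance methylation, changed by -1.21 ± 0.11.

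Some genes differed only over the whole period: they were called between days 4 and 21 and in neither interval. There were 1598 (7.20% of all genes), 564 higher (2.54%) and 1034 lower (4.66%), which is 24.8% of the genes called between days 4 and 21. The definition itself favours small changes and a day 7 mean between both ends, so neither is a finding about these genes. The median size was 0.48, the day 7 mean lay between both ends for 1566 of the 1598, and 19 rises and 18 falls reached 2-fold. The count of such rises depended on day 7: without replicate 1 of day 7 it was 852, and the falls were 1382.

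Gpm6a, a membrane glycoprotein of neurons and mesothelium, had the largest rise of this kind. It stood at 7.03, 6.91 and 7.16 on day 4, 8.23, 7.31 and 7.89 on day 7 and 8.57, 7.89 and 8.54 on day 21. The net change was 1.30 ± 0.24 (limma adjusted p = 0.00178), against 0.77 ± 0.24 (adjusted p = 0.0563) up to day 7 and 0.52 ± 0.24 (adjusted p = 0.151) from day 7. Ednrb, an endothelin receptor, rose by 1.11 ± 0.24, Cpeb4, which binds polyadenylation elements, by 1.04 ± 0.21, the lysosomal sialic acid exporter Slc17a5 by 1.03 ± 0.19 and the cyclic GMP-dependent kinase Prkg1 by 1.01 ± 0.19. Mctp2, Fam180a and Rpl32l completed the 8 largest rises at 1.09 ± 0.21, 1.06 ± 0.23 and 1.28 ± 0.36. The day 21 arrays of Fam180a spread widely, at 7.31, 6.20 and 6.56. The call for Rpl32l was lost without replicate 1 or replicate 3 of day 4 and without replicate 2 of day 21.

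Among the falls of this kind was Bmp5, a BMP ligand, at 7.82, 8.31 and 8.09 on day 4, 7.33, 7.37 and 6.76 on day 7 and 7.61, 6.62 and 6.21 on day 21. Its net change was -1.26 ± 0.31 (limma adjusted p = 0.0108), against -0.92 ± 0.31 (adjusted p = 0.0846) and -0.34 ± 0.31 (adjusted p = 0.508) in the intervals. The nucleolar proteins Noc3l and Nol8 changed by -1.20 ± 0.23 and -1.08 ± 0.21, the mismatch repair gene Msh3 by -1.03 ± 0.20 and Fgf15, an FGF ligand, by -1.03 ± 0.23. Alox5ap, a protein of leukotriene synthesis, changed by -1.09 ± 0.21, the kinesin-binding protein gene Ktn1 by -1.0 ± 0.18 and Lrrc49 by -0.98 ± 0.19.

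**Figure D4:**
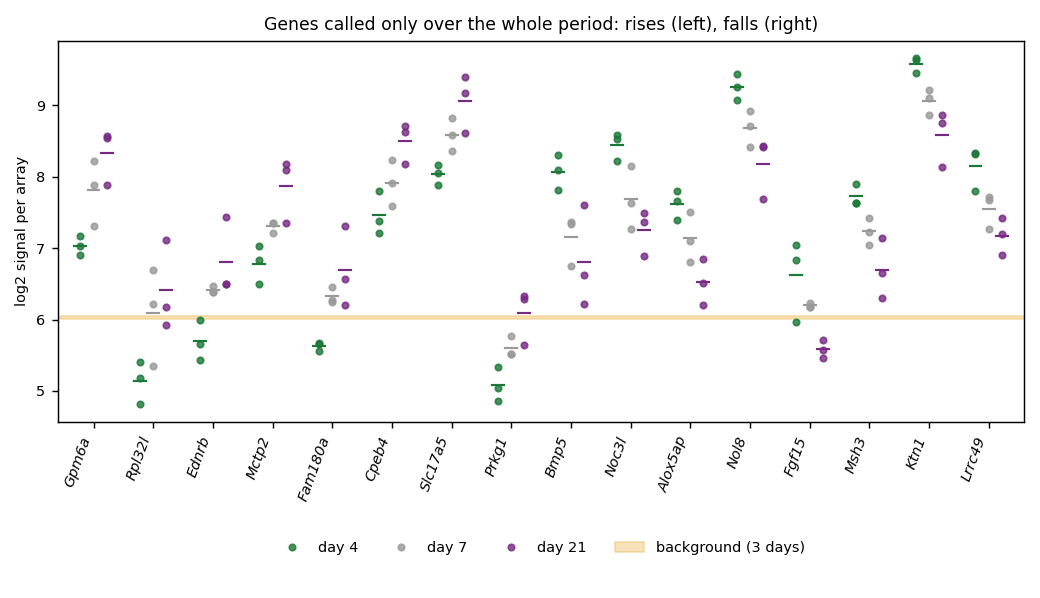
Log2 signal on each of the 9 arrays for the 8 largest rises and 8 largest falls among genes called only over the whole period, with a short line at the mean of each day and a band for background. The net changes run from 1.01 (Prkg1) to 1.30 (Gpm6a) among the rises and from -0.98 (Lrrc49) to -1.26 (Bmp5) among the falls, and the day 7 means lie between both ends.

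By list, genes called only over the whole period made up 11 of 29 splicing regulators (37.9%, against 7.20% of all genes), all lower. They were Srsf2, Srsf3, Srsf6, Srsf10, Tra2b, Hnrnpd, Hnrnpm, Hnrnpu, Khdrbs1, Ptbp1 and Snrpd1, which are SR proteins, ribonucleoprotein components and other splicing factors. The largest of these changes was that of Srsf10, at -0.95 ± 0.17, and the smallest that of Ptbp1, at -0.31 ± 0.09 (named after their values were seen). Among mitotic genes 8 of 35 were of this kind and among ribosome biogenesis genes 6 of 38, all lower. Among chromatin regulators they were 5 of 31 and among DNA replication genes 4 of 36, also all lower. Only a called gene can be of this kind, and 24.8% of all called genes were. The called falls of these lists numbered 33, 36, 18 and 36, in the same order, and those of the splicing regulators 19. A list with many called genes can thus hold many of this kind. The lists of plasma proteins, visceral endoderm, epithelial junctions, stromal matrix and interferon response held 0.

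Other genes moved in both intervals. Igfbp5 rose steadily, by 2.61 ± 0.11 up to day 7 and by 2.74 ± 0.11 from day 7, and so did Fgfr2, by 1.72 ± 0.14 and 1.59 ± 0.14. Lhx1 changed by -2.72 ± 0.18 and -2.74 ± 0.18, and Cdh2 by -1.87 ± 0.19 and -1.67 ± 0.19. For others the net value leaves out a large excursion at day 7. Slc13a4, a sulfate transporter, stood at 7.34, 7.78 and 7.52 on day 4, 12.42, 12.35 and 12.43 on day 7 and 7.87, 7.57 and 7.66 on day 21, so that its net change was 0.16 ± 0.13 (limma adjusted p = 0.433). Apom, an apolipoprotein of high-density particles, rose by 3.61 ± 0.27 up to day 7, then changed by -3.10 ± 0.27, with a net 0.51 ± 0.27 (adjusted p = 0.194). Gramd1b, a sterol transporter, and the protease gene Prss12 also returned near their day 4 levels, with net changes of 0.36 ± 0.15 and -0.11 ± 0.12, neither of which passed. The adhesion gene Dscam had a net -0.10 ± 0.20, which did not pass, and Slco4c1, an organic anion transporter, kept a called rise of 0.64 ± 0.15.

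The opposite excursion was seen in interferon-inducible genes. Of 31 listed, 20 were called lower and 0 higher between days 4 and 7, 24 higher and 0 lower between days 7 and 21, and 12 higher and 3 lower over the whole period. Ifi27 stood at 8.75, 9.02 and 9.16 on day 4, 5.49, 6.06 and 5.17 on day 7 and 10.60, 10.64 and 10.62 on day 21, a net rise of 1.64 ± 0.20. Oasl2, of the oligoadenylate synthetase family, had a net -0.29 ± 0.10 (limma adjusted p = 0.0522), and Tlr3, a sensor of double-stranded RNA, a net rise of 0.83 ± 0.13. Rtp4 had a net 0.49 ± 0.15, a call that was lost without either replicate 1 or replicate 2 of day 4 and without any of the 3 day 21 arrays in turn. The guanylate-binding proteins Gbp3 and Gbp7 stayed lower at day 21, at -2.07 ± 0.15 and -1.38 ± 0.094. Antigen presentation genes also stayed lower on balance, with 9 of 21 called lower and 2 higher. Psmb8, Psmb9 and Psmb10, the catalytic subunits of the immunoproteasome, changed by -1.88 ± 0.12, -1.24 ± 0.12 and -1.92 ± 0.12. Fabp7, a fatty acid binding protein of radial glia, dipped in the same way and had a net -0.33 ± 0.21 that did not pass.

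In energy metabolism, genes of fatty acid oxidation rose and those of the respiratory chain mostly did not pass. Of 28 genes of fatty acid oxidation and peroxisomes, 15 were called higher and 0 lower (median 0.44). Cpt1a, which admits long-chain fatty acids to mitochondria, stood at 6.40, 5.97 and 6.39 on day 4 and 10.57, 10.65 and 10.16 on day 21, a rise of 4.20 ± 0.18 (18.4-fold). Of 33 genes listed for the respiratory chain, 4 were called higher and 0 lower (median 0.03), and 1 or 2 were called higher without replicate 1 or 2 of day 4 and without replicate 1 or 3 of day 21. The largest change in that list was Ppargc1a, a coactivator of mitochondrial genes, from 4.38, 4.77 and 3.99 to 8.32, 8.12 and 7.78 (at least 4.08-fold), while the subunit genes Cox6a1, Ndufb3 and Sdhc changed by 0.43 ± 0.13, 0.41 ± 0.13 and 0.36 ± 0.11, calls that were each lost without replicate 1 of day 4, without replicate 2 of day 4 and without replicate 3 of day 21. Of 24 hypoxia and glycolysis genes, 15 were called higher and 1 lower, led by the peptide hormone Adm (3.03 ± 0.16), Vegfa (2.55 ± 0.095), Ndrg1 (2.32 ± 0.10) and the oxygen sensor Egln3 (1.97 ± 0.10). Genes of serine, glycine and one-carbon metabolism fell for 12 of 23 and rose for 2, with Cth, which makes cysteine, at -2.42 ± 0.14 and the glycine decarboxylase Gldc at -1.94 ± 0.13. Cholesterol synthesis genes were called lower for 8 of 19 and higher for 1, and without replicate 3 of day 4 the falls were 5.

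Genes of acute response and of growth factor supply were mostly higher at day 21. Of 24 immediate early genes, which many stimuli induce quickly, 19 were called higher and 1 lower (median 1.51). Atf3 stood at 7.44, 6.96 and 6.96 on day 4 and 10.46, 10.67 and 10.91 on day 21 (3.56 ± 0.15), and Fosb, Nr4a1 and Jun rose by 2.95 ± 0.11, 2.75 ± 0.10 and 2.63 ± 0.12. Targets of TGF-beta and YAP were called higher for 17 of 24 and lower for 1, with Ankrd1 at 3.78 ± 0.13, the ligand Tgfb3 at 2.76 ± 0.16, Crim1 at 2.51 ± 0.18 and the matricellular Ccn1 at 2.15 ± 0.13. Complement and acute phase genes were called higher for 18 of 29 and lower for 0. Lbp, which binds bacterial lipopolysaccharide, rose by 3.34 ± 0.16 and the interleukin-1 receptor Il1r1 by 2.89 ± 0.15. Serpina3n rose by 2.82 ± 0.40 with a wide spread at day 21, at 9.0, 7.20 and 7.07. The insulin-like growth factor axis had 12 of 20 genes called higher and 2 lower, among them the fetal growth factor Igf2 (1.92 ± 0.093) and the binding protein Igfbp7 (4.17 ± 0.15). Igf2 is imprinted, that is, expressed from the copy of 1 parent. Of 25 imprinted genes, 11 were called higher and 5 lower, with the zinc finger genes Zim1 and Plagl1 at 3.83 ± 0.12 and 3.44 ± 0.16.

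MicroRNA genes held both rises and falls. Of 478 with a probe set, 34 were called higher and 23 lower (7.11% and 4.81%, against 15.0% and 14.1% of all genes). Below background on both days were 327 of the 478. A microRNA recognises its targets mainly through its seed, bases 2 to 8 of the mature strand. Mature sequences from RefSeq (build GRCm38.p6) were matched for 50 of the 57 called genes. Those of 17 called genes are given 5′ to 3′ with the seed in capitals, to show which of them share a seed.
miR-17-5p: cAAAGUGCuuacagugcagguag
miR-20a-5p: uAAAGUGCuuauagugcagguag
miR-106b-5p: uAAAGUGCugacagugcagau
miR-18a-5p: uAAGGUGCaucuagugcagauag
miR-19a-3p: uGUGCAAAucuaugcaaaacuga
miR-301a-3p: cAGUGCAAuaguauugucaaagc
miR-181a-5p: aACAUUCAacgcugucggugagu
miR-181b-5p: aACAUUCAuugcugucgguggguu
miR-181c-5p: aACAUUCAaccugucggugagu
let-7b-5p: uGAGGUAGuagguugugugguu
let-7c-5p: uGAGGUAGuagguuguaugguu
miR-99a-5p: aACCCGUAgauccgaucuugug
miR-100-5p: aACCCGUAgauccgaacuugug
miR-205-5p: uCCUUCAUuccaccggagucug
miR-31-5p: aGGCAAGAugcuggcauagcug
miR-200b-3p: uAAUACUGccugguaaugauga
These are a selection made after their values were seen, and the array reads their precursors or host transcripts, not the mature strands.

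Of 12 measured microRNA genes listed for the early embryo, 5 were called lower and 0 higher, and 2 or 3 were called lower without replicate 1, 2 or 3 of day 4 and without replicate 1 or 3 of day 21. Below background on both days were 8 of the 12, among them Mir290a, Mir302a, Mir367 and the called Mir363. The other called falls in this list were Mir17, Mir18, Mir19a and Mir20a. The genes of the first 6 sequences were selected from the falls. Mir17, Mir18, Mir19a and Mir20a belong to the miR-17 cluster, which promotes proliferation, and changed by -0.75 ± 0.24, -1.18 ± 0.26, -1.21 ± 0.37 and -0.94 ± 0.25. These 4 genes are transcribed together, so they are not independent observations. Mir20a stood at 9.05, 9.19 and 9.23 on day 4 and 7.72, 8.50 and 8.41 on day 21. Its call was lost without replicate 3 of day 4 and without replicate 1 of day 21, and that of Mir19a without any of the 3 day 4 arrays in turn and without replicate 1 or replicate 3 of day 21. Mir106b, whose product shares the seed AAAGUGC with miR-17-5p and miR-20a-5p, changed by -1.43 ± 0.25, and Mir301 by -2.38 ± 0.34 (at least 1.69-fold lower). The calls for Mir17, Mir18, Mir19a and Mir20a were made only over the whole period.

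Of 29 measured microRNA genes listed for differentiated cells, 10 were called higher, 0 lower and 19 did not pass. Below background on both days were 18 of the 29, among them the called Mir145a, Mir30a, Mirlet7b and Mirlet7c-1. In the miR-181 family 4 of 6 measured genes, all with the seed ACAUUCA, were called higher: Mir181a-1 by 1.60 ± 0.54, Mir181b-1 by 3.23 ± 0.71, Mir181b-2 by 1.94 ± 0.13 and Mir181c by 0.97 ± 0.21. Mir181a-1 and Mir181b-1 lie close together on chromosome 1, so they may not be independent observations. Mir181b-1 spread widely, at 4.28, 2.95 and 2.71 on day 4 and 7.56, 5.68 and 6.40 on day 21 (at least 1.41-fold). Mir181b-2 rose at least 1.88-fold, and Mir181a-1 was below background on both days. Mir205, of stratified epithelium, rose by 1.86 ± 0.23, Mir31 by 1.15 ± 0.19 and Mir200b, of the epithelial miR-200 family, by 0.72 ± 0.23. All their day 4 arrays were below background, so the bounds are at least 1.01-fold, 1.33-fold and 1.52-fold. Mir205 ended near background, at a mean of 6.05. Of 4 measured genes of the miR-200 and miR-141 family, Mir200b alone passed. Of 11 measured let-7 genes 2 were called higher, Mirlet7b and Mirlet7c-1 (seed GAGGUAG), and of 3 measured miR-99 and miR-100 genes 2, Mir99a and Mir100 (seed ACCCGUA), by 0.63 ± 0.12, 0.84 ± 0.22, 1.46 ± 0.34 and 0.47 ± 0.15. Mir100 remained below background on both days, as did 10 of the 11 let-7 genes, Mirlet7b and Mirlet7c-1 among them. Mir99a rose at least 1.28-fold. Mir99a and Mirlet7c-1 lie close together on chromosome 16, so they may not be independent observations. Mir122, the hepatocyte microRNA gene, rose by 1.72 ± 0.29 (at least 1.35-fold).

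**Figure D5:**
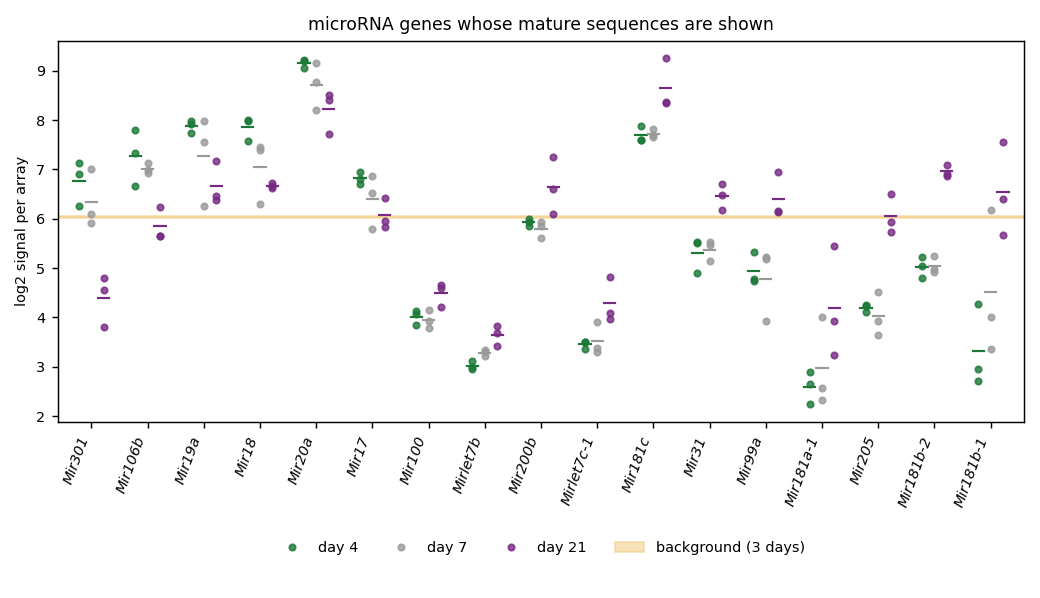
Log2 signal on each of the 9 arrays for the 17 microRNA genes behind the sequences shown, with a short line at the mean of each day and a band for background, ordered by net change. They run from -2.38 (Mir301) to 3.23 (Mir181b-1), and the 6 that fell stand at the left.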

How the data were processed

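Affymetrix arrays of 9 samples in 3 groups of 3 (days 4, 7 and 21) were analysed from the deposited table of log2 signals, which the authors made with RMA (background correction, quantile normalization and summarization) in Affymetrix Expression Console, per the submitters' processing notes. Program versions: not given in the sources used here. By construction, RMA sets the arrays to a common distribution, which removes differences in total RNA per cell. No further normalization was applied. Of 34365 probe sets, 23521 named 1 gene, 1814 several and 9030 none, by the platform's annotation; the last 2 kinds were left out. For the 1082 genes with several probe sets the brightest over all arrays was used, and called probe sets of Arhgap26, Cul5, Hif1a, Kdf1 and Zc3h6 disagreed in direction. With limma 3.58.1 (R 4.3.3), lmFit and eBayes fitted a mean per day on 9 arrays, with Benjamini-Hochberg adjustment over 22180 genes and calls at an adjusted p under 0.05. The fit was tested on simulated data. Arrays have no counted depth, and their number limits the precision.

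The 54 lists, 23 gene families and the members were chosen with earlier results of these data known. Named genes were the 12 largest called rises and falls without overlap of arrays, the largest changes in each list and family, the 8 largest in each direction called only over the whole period, 6 for each course over the days, and the genes checked as markers. Alternatives were other scalings, probe set rules, filters, variance models, a replicate block, a stricter threshold and leaving out each array.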

Additional observations from a re-analysis of the deposited data

How the results depend on the processing

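Each result was recomputed under 18 other settings, and 282 of the 307 called genes named by the rule kept their call under all of them. Most of these were picked for large changes, so their share does not describe all called genes. Of all 6448 called genes, 68.5% stayed called at an adjusted p under 0.01. Without 1 array of day 4 or day 21, between 81.6% and 87.2% stayed called. None changed direction while called. The number of genes called higher or lower stayed within 1.5 times under all settings but an adjusted p under 0.01, where 2003 genes were called lower. Leaving out 1 array at a time gave between 5423 and 6255 called genes, 2861 to 3239 higher and 2491 to 3016 lower. Genes called only over the whole period then numbered between 1239 and 2234, of which 465 to 852 were higher and 774 to 1382 lower. The 3 highest of these counts came from leaving out a day 7 array, which leaves 2 arrays in both intervals. Deviations of same-numbered arrays of days 4 and 21 correlated at -0.054, -0.031 and -0.018, and those of days 7 and 21 at 0.078, 0.14 and 0.26, so not every pair was over 0.1 and the numbers were not taken to pair the samples. With the replicate block, 6413 genes were called (3315 higher, 3098 lower) and 1642 only over the whole period. Centring arrays on their medians gave 3079 higher and 3250 lower, and quantile normalization 3310 and 3238. Most often lost were Ndufb3 and Rtp4 (9 settings each), Dazl and Sdhc (8 each) and Mir19a (7). At an adjusted p under 0.01, 11 of 29 splicing regulators were called lower, against 19. The cause of these differences was not tested. Genes near background are measured as bounds, and changes in low signals are compressed.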

Other observations

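Genes of the circadian clock rose in part: 7 of 19 were called higher and 1 lower, with the activator Npas2 at 1.75 ± 0.23 (log2 change ± SE), the repressor Bhlhe40 at 1.04 ± 0.19 and the cryptochrome Cry2 at 0.83 ± 0.15. Of the 19 genes, 4 were called only over the whole period (21.1%, against 7.20% of all genes), all higher. Of all called genes, 24.8% were of this kind. The 4 were Rora, Arntl, Per1 and Fbxl21 (named after their values were seen). Fbxl21 was below background on both days. Membrane transporters of the Slc families were called higher for 78 of 360 and lower for 41 (27 without replicate 3 of day 4). These are 21.7% and 11.4%, against 15.0% and 14.1% of all genes. Rises included Slc2a2, the glucose transporter of liver and pancreas, at 3.29 ± 0.13 (at least 6.93-fold), and Slco2a1, the prostaglandin transporter, at 3.93 ± 0.22. Cytochrome P450 genes were called higher for 15 of 90 (16.7%) and lower for 4 (4.44%), against 15.0% and 14.1% of all genes. The falls numbered 2 without replicate 1 of day 4 or replicate 2 of day 21. Below background on both days were 68 of the 90. Cyp11a1, which starts steroid synthesis from cholesterol, rose from 5.39, 5.35 and 5.39 to 9.47, 9.51 and 9.47 (at least 10.8-fold). Serpins, mostly protease inhibitors, were called higher for 16 of 53 and lower for 2, with the corticosteroid-binding globulin gene Serpina6 at 3.04 ± 0.35.

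Hox genes, which mark position along the body axis, hardly took part: 1 of 36 was called higher and 2 lower, and 3 were above background at day 21. Hoxb1, of the early streak and hindbrain, changed by -1.58 ± 0.15. Forkhead genes had 8 rises and 7 falls of 43 (18.6% and 16.3%, against 15.0% and 14.1% of all genes), with Foxq1 at 1.80 ± 0.14 and Foxc1, of mesoderm, at -1.56 ± 0.16. Among Klf factors 6 of 17 were called higher and 3 lower. Germline genes were called higher for 3 of 20 (15.0%, the same share as of all genes) and lower for 0. The amounts were small (Tdrd7 0.67 ± 0.14, Rhox6 0.54 ± 0.12). Below background on both days were 17 of the 20, among them the called Dazl, whose call was lost in 8 settings. Genes of cytosolic ribosomal proteins were called lower for 15 of 63 (23.8%) and those of mitochondrial ones for 17 of 68 (25.0%), with 1 and 1 called higher. Of all genes, 14.1% were called lower and 15.0% higher. Of genes above background on day 4, 7 or 21, 21.6% were called lower and 22.8% higher. The shares of falls thus lie near that of measurable genes, and the shares of rises under it. The cytosolic falls numbered 25 with the most variable probe set of each gene. Without replicate 3 of day 4 there were 8 cytosolic and 11 mitochondrial falls.

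Among 22139 genes in genome order, 2 runs of at least 4 neighbours all rose by 2-fold or more. The first was Pcdhb14 to Pcdhb18, 5 clustered protocadherin genes of cell recognition, with changes between 1.41 (Pcdhb15) and 2.34 (Pcdhb16). Pcdhb14 and Pcdhb15 were below background on both days, and near-identical copies can share probes. The other run was Ctdspl, Mir26a-1, Vill and Plcd1, with changes of 1.49 ± 0.18, 1.24 ± 0.21, 1.71 ± 0.18 and 1.30 ± 0.14. Mir26a-1 lies within Ctdspl, and its day 4 arrays were all below background (at least 1.69-fold). Of 1088 olfactory receptor genes, which also set the background, 8 were called higher and 23 lower. The rises numbered 4 without replicate 1 of day 4, 5 without replicate 3 of day 4 and 15 without replicate 2 of day 21, and the falls 42 without replicate 3 of day 21 and 35 with arrays centred on their medians.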
